A study of Mus musculus with 12 samples.

Results

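Bst2, Ifi44, Ifi35, Xaf1, Isg20, Samhd1, Ifitm2, Ifitm3 and Apobec3 are interferon-stimulated or antiviral genes of the mouse, and most of them encode restriction factors, proteins with which a cell blocks a virus directly. They were taken by gene name from the microarray, as 9 genes of the 23913 features tested and 13 of the 55681 probes measured. The choice was made with earlier results of the same arrays known. The LPS values of the 9 genes, and their values per array without LPS, are therefore given as a description. All 13 probes passed the filter on dim probes, and the probe used for each gene was well above background on all 12 arrays.

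The cells were RAW264.7, an established mouse macrophage line, and the arrays measured their total RNA in a single colour (Cy3). The 12 arrays formed 4 groups of 3, and every group had received an siRNA for 24 h followed by 4 h of further culture. Control-siRNA cells received a scrambled, non-specific siRNA and no LPS. Control-siRNA cells with LPS received the same siRNA and then E. coli LPS at 1 µg/ml, a bacterial cell wall component. LincRNA-siRNA cells received an siRNA against lincRNA-Tnfaip3, a long intergenic non-coding RNA, and no LPS. LincRNA-siRNA cells with LPS received that siRNA and then LPS at the same dose. There were no cells without an siRNA, so an effect of transfection itself was not measured. Whether the 3 arrays of a group came from separate cultures is not in the labels, so the p-values reflect how far these arrays scatter, and that scatter may be technical.

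Interferon-stimulated genes are switched on when a cell senses a pathogen. In macrophages LPS is recognised by the receptor TLR4, which leads through the factor IRF3 to interferon beta. Secreted interferon then acts back on the same cells through JAK kinases and a complex that includes IRF9, which binds the interferon-stimulated response element of their target genes. The products act at different steps of a viral life cycle: IFITM proteins at fusion with the cell, SAMHD1 and APOBEC3 at reverse transcription, ISG20 on RNA, and BST2 at the release of new particles.

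Some facts about the arrays bear on all values that follow. The unstimulated control-siRNA arrays 1 and 2 were alone on slide 1, and the LPS-treated lincRNA-siRNA arrays 2 and 3 were alone on slide 3. The other 8 arrays shared slide 2. Slide 1 arrays had 27198 and 29452 probes well above background, against 32702 to 36391 on the others. Arrays 2 and 3 of the lincRNA siRNA without LPS stood apart from array 1 of their own group for 6 of the 9 genes, so the main results resting on that group are also given without array 1. No probe was named for lincRNA-Tnfaip3, and whether the siRNA lowered its target was not measured by name here. Of 9 macrophage marker genes 8 were well above background on every array. Of 14 measured markers of other cell types 5 were well above background on every array, and the defining B cell and epithelial markers Ms4a1 and Epcam on none.

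The promoters are shown first because the 9 genes are known as interferon targets. RefSeq promoter windows on assembly GRCm38.p6, each reaching from 250 bases before to 50 bases after a transcript's start, were available for all 9 genes (12 windows). The core of the interferon-stimulated response element was searched on both strands as GAAA, any 2 bases and GAAA, and as the shorter AAANNGAAA, which the longer motif contains. A STAT-type palindrome, TTCNNNGAA, was searched in the same way. The longer motif occurred in 4 of the 12 windows, from 4 genes (Bst2, Ifitm2, Ifitm3 and Apobec3), and in 3.44% of all 32851 windows. The shorter one occurred in 7 of the 12 windows, from 7 genes, all except Ifi35 and Samhd1, and in 10.6% of all windows. TTCNNNGAA occurred in 5 of the 12 windows, those of Bst2, Ifi35, Ifitm3, Isg20 and Samhd1, and in 8.3% of all windows. A match is a run of letters and no evidence of binding. The lines that follow give 1 upstream match per gene within 30 bases of context, read 5′ to 3′ along the gene's own strand, with the match in capitals:
Bst2, chr8:71537577-71537606, minus strand, match from 124 bases before the start: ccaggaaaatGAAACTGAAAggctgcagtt
Ifitm2, chr7:140955988-140956017, minus strand, match from 46 bases before the start: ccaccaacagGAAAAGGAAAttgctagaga
Apobec3, chr15:79892258-79892287, plus strand, match from 140 bases before the start: catcagttagTTTCCCTTTCtctttgcgat
Ifi44, chr3:151749946-151749975, minus strand, match from 55 bases before the start: gtatacagagTTTCAGTTTtcgtttcccga
Xaf1, chr11:72301602-72301631, plus strand, match from 17 bases before the start: gggcaaacacTTTCAGTTTtgttttcctgt
Isg20, chr7:78913352-78913381, plus strand, match from 62 bases before the start: tcttggaattTTTCCTTTTggacctaataa
The Bst2 and Ifitm2 lines carry the motif in the gene's own orientation, and the other 4 lines carry it on the opposite strand. Ifi44 and Xaf1 share the same 9 matched letters. Ifitm2, whose line holds the longer motif, and Ifi44, whose line holds only the shorter one, were the members with the lowest and the highest change with LPS in the values that follow.

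Levels are given as log2 of the processed spot intensity minus the 75th percentile of the same array, so that 1 unit is a doubling and 0 is the level of that percentile. Levels of different genes come from different probes and are not compared with each other. In bulk RNA a change in the share of cells that express a gene cannot be told apart from a change in the RNA per cell.

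Ifitm3 encodes a membrane protein that stops enveloped viruses from fusing with endosomal membranes, and its probe lay at chr7:148195591-148195650 (mm9). Its level on the 3 control-siRNA arrays was 6.42, 6.55 and 5.95, and with LPS it was 6.81, 7.38 and 7.38. With the lincRNA siRNA it was 5.80, 7.26 and 7.23 without LPS and 7.27, 7.32 and 7.71 with LPS. All 6 LPS arrays therefore lay above all 3 control-siRNA arrays, while array 1 of the lincRNA siRNA lay below them and arrays 2 and 3 lay within the range of the control-siRNA arrays with LPS. This probe was printed as 10 spots on each array, and the SD between those spots was 0.028 to 0.11 log2 units, which describes the scatter within an array only.

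Ifitm2, a close relative of Ifitm3 with a probe at chr7:148140881-148140940 (mm9), did not follow it. Its level was 5.88, 5.66 and 5.52 on the control-siRNA arrays and 5.61, 5.24 and 5.20 with LPS. With the lincRNA siRNA it read 5.50, 5.27 and 5.12 without LPS and 5.43, 5.04 and 5.53 with LPS. Groups with and without LPS overlapped under both siRNAs, and Ifitm2 was the only one of the 9 genes with a lower mean after LPS in control-siRNA cells, by 1.27-fold (log2 change -0.34 ± 0.18, SE of the linear model, n = 3 against 3).

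Bst2 encodes tetherin, which holds budding virus particles at the cell surface (probe at chr8:74058603-74058662, mm9). It read 4.69, 4.62 and 4.49 on the control-siRNA arrays and 5.61, 6.14 and 6.23 with LPS. The lincRNA-siRNA arrays read 4.28, 6.23 and 6.02 without LPS and 6.15, 6.09 and 6.36 with LPS. The 3 control-siRNA arrays spanned 4.49 to 4.69, and array 1 of the lincRNA siRNA was the lowest of all 12 arrays. Arrays 2 and 3 of that group were as high as the LPS arrays, so that the groups with and without LPS overlapped under the lincRNA siRNA and not under the control siRNA.

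Isg20 encodes an exonuclease that degrades single-stranded RNA. Its tested probe lay at chr7:86065136-86065195 (mm9) and read 0.86, 0.96 and 0.77 on the control-siRNA arrays against 4.24, 4.26 and 4.36 with LPS. The lincRNA-siRNA arrays read 0.54, 2.01 and 2.20 without LPS and 3.97, 3.94 and 3.68 with LPS. Isg20 had the tightest control groups of the strongly induced members, with SDs of 0.09 and 0.06 (n = 3 each). Arrays 2 and 3 of the lincRNA siRNA lay between the groups, more than 1 unit above every control-siRNA array and well below every LPS array. A second probe, at chr7:86064960-86065019, gave a change with LPS of 3.69 ± 0.41 in control-siRNA cells, against 3.42 ± 0.35 for the tested one, and showed the same order of arrays 1, 2 and 3 (-1.08, 0.74 and 0.89).

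Samhd1 encodes a triphosphohydrolase that destroys the deoxynucleotides a retrovirus needs. The tested probe, at chr2:156923265-156923324 (mm9), read 3.71, 3.73 and 3.98 on the control-siRNA arrays and 4.29, 4.20 and 4.27 with LPS. Under the lincRNA siRNA it read 3.83, 4.25 and 3.94 without LPS and 4.26, 3.99 and 4.20 with LPS. All 12 arrays lay between 3.71 and 4.29, and the groups with and without LPS overlapped under the lincRNA siRNA only. A second probe, which spans an intron between 156930644 and 156931997, changed by 0.21 ± 0.11 with LPS in control-siRNA cells, and its difference between the siRNAs without LPS was -0.08 ± 0.11, against 0.20 ± 0.14 for the tested probe. The 2 probes thus differed in sign for the siRNA.

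Apobec3 encodes a cytidine deaminase that mutates retroviral DNA during reverse transcription. At its tested probe (chr15:79738107-79738166, mm9) the control-siRNA arrays read 1.44, 1.82 and 2.32, and with LPS they read 2.36, 2.51 and 2.69. Under the lincRNA siRNA they read 3.62, 2.42 and 2.42 without LPS and 3.21, 2.57 and 2.80 with LPS. Apobec3 was the only member for which array 1 of the lincRNA siRNA without LPS was the highest of the 12 arrays, by 1.20 and 1.19 units over arrays 2 and 3. Its second probe, at chr15:79725905-79725964, did not show this: it read -3.27, -3.91 and -3.26 on those 3 arrays and -3.56, -3.69 and -3.80 on the control-siRNA arrays.

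Ifi44 encodes a GTP-binding protein of the cytosol that is induced by interferon (probe at chr3:151394035-151394094, mm9). Its level was -3.00, -2.23 and -2.86 on the control-siRNA arrays and 1.24, 2.96 and 2.77 with LPS. In lincRNA-siRNA cells it was -2.62, 2.18 and 2.14 without LPS and 2.95, 2.49 and 2.66 with LPS. This was the widest range among the 9 genes: array 1 of the lincRNA siRNA lay with the control-siRNA arrays, and arrays 2 and 3 lay 4.80 and 4.76 units above it, inside the range of the control-siRNA arrays with LPS. Array 1 of the control siRNA with LPS was the lowest of the LPS arrays for Ifi44, and likewise for Bst2, Ifi35, Xaf1, Ifitm3 and Apobec3.

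Ifi35 encodes a leucine zipper protein that pairs with NMI and takes part in innate signalling (probe at chr11:101319011-101319070, mm9). It read 1.95, 2.24 and 2.08 on the control-siRNA arrays and 3.50, 3.75 and 3.75 with LPS. Under the lincRNA siRNA the values were 2.04, 3.35 and 3.39 without LPS and 3.92, 4.04 and 3.84 with LPS. Groups with and without LPS did not overlap under either siRNA, and arrays 2 and 3 of the lincRNA siRNA came close to the LPS arrays without reaching them.

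Xaf1 encodes a partner of the apoptosis inhibitor XIAP and favours cell death (tested probe at chr11:72122169-72122228, mm9). It read -0.60, 0.13 and -0.45 on the control-siRNA arrays and 3.31, 3.64 and 3.68 with LPS. In lincRNA-siRNA cells it read -0.69, 2.10 and 2.08 without LPS and 3.71, 3.43 and 3.47 with LPS. Arrays 2 and 3 of the lincRNA siRNA lay between the groups, as for Isg20. The second probe, at chr11:72127175-72127234, was well above background on 10 of 12 arrays and repeated the order, with -4.56, -2.81 and -2.49 on arrays 1, 2 and 3 of the lincRNA siRNA.

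**Figure D1:**
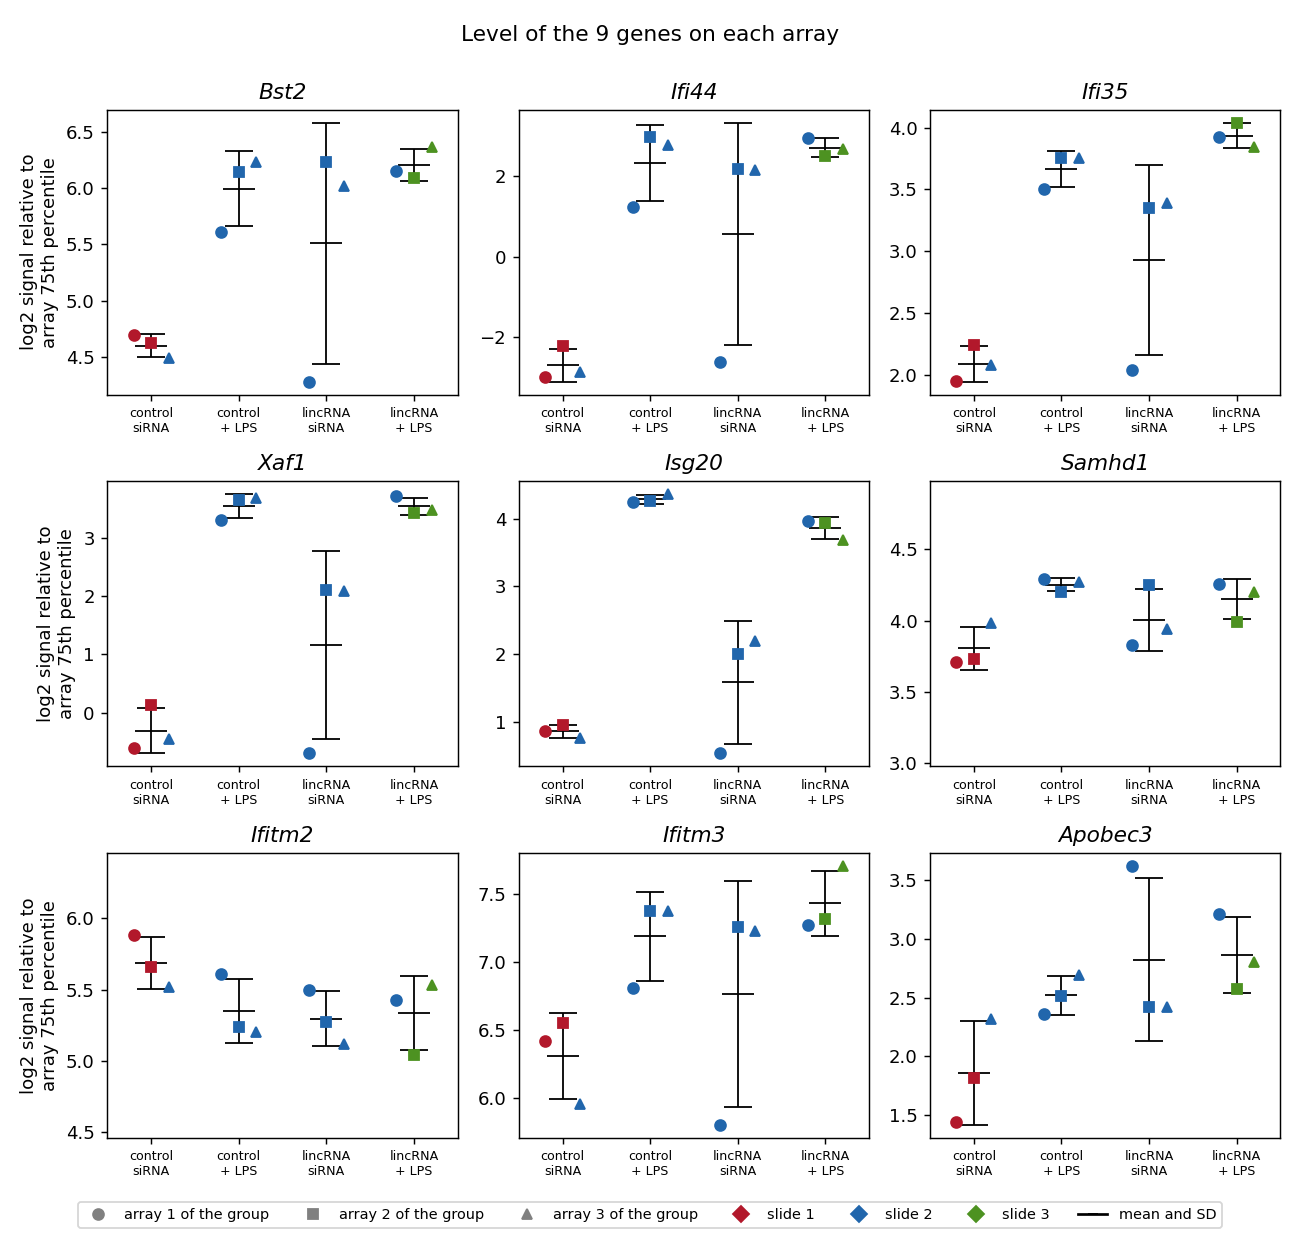
Level of each of the 9 genes on each array, as log2 signal relative to the array's 75th percentile (vertical axis), for the 4 groups of 3 arrays (horizontal axis). Point shapes give the array number, colours the slide, and black bars the mean and SD; the wide bars of the lincRNA siRNA without LPS come from array 1 lying apart from arrays 2 and 3, for Ifi44 at -2.62 against 2.18 and 2.14.

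In control-siRNA cells the change with LPS spanned a wide range over the 9 genes. Ifi44 increased 32.5-fold (log2 change 5.02 ± 1.09, SE, n = 3 against 3), Xaf1 14.4-fold (3.85 ± 0.62) and Isg20 increased by 3.42 ± 0.35 on the log2 scale. Ifi35 increased 2.98-fold (1.58 ± 0.31). These 4 passed an adjusted p of 0.05 in limma, out of 9, where 5.09% of the 23913 features passed in either direction and 3.21% upwards. The rule had used this contrast, and nothing is read from that count. The values for the other members with a higher mean were 1.39 ± 0.42 for Bst2 (2.63-fold), 0.88 ± 0.37 for Ifitm3 (1.84-fold), 0.66 ± 0.34 for Apobec3 (1.58-fold) and 0.44 ± 0.13 for Samhd1 (1.36-fold). The 3 LPS arrays lay above all 3 control-siRNA arrays for 8 members, as they did for 14.6% of features. The median change of the 9 genes was 1.39, against 0.06 for all features.

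Slides limit that comparison, since 2 of the 3 control-siRNA arrays were alone on slide 1. Within slide 2, where 3 LPS arrays stood against 1 control array, the changes were 5.19 for Ifi44, 4.00 for Xaf1, 3.52 for Isg20, 1.59 for Ifi35, 1.50 for Bst2 and 1.24 for Ifitm3. They were 0.27 for Samhd1 and 0.20 for Apobec3, less than the 0.44 and 0.66 over all slides. With the slide as a block only Isg20 passed in limma. Leaving out control-siRNA array 1 or 2, or array 2 or 3 of the control siRNA with LPS, left 2 members past the threshold, Xaf1 and Isg20.

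In lincRNA-siRNA cells the estimated change with LPS was lower than in control-siRNA cells at the tested probes of 8 of the 9 genes. That difference did not pass its own test (the interaction, given further on). At second probes it was higher for Apobec3 (0.63 against 0.38) and Samhd1 (0.31 against 0.21), and lower for Xaf1 and Isg20. At the tested probes the change was 2.37 ± 0.62 for Xaf1 (5.17-fold), 2.28 ± 0.35 for Isg20 (4.86-fold), 2.13 ± 1.09 for Ifi44 (4.39-fold) and 1.01 ± 0.31 for Ifi35 (2.01-fold). It was 0.69 ± 0.42 for Bst2 and 0.66 ± 0.37 for Ifitm3, and it lay between 0.03 and 0.14 for Samhd1, Apobec3 and Ifitm2. Isg20 alone passed, 1 of 9 members where 1.83% of features passed in either direction and 1.5% upwards. Of the 3 LPS arrays 2 were alone on slide 3, and with the slide as a block Isg20 was at 2.39 and no member passed. Groups did not overlap for 5 members (Ifi44, Ifi35, Xaf1, Isg20 and Ifitm3), as for 8.15% of features, and for Ifitm3 the gap was 0.01 units. The 2 LPS comparisons have no control arrays in common.

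The size of these changes depended on which unstimulated arrays were used. Without array 1 of the lincRNA siRNA the change with LPS was 0.54 ± 0.47 for Ifi44, 0.07 ± 0.19 for Bst2, 0.18 ± 0.24 for Ifitm3 and 0.56 ± 0.13 for Ifi35. Xaf1 at 1.44 ± 0.22 and Isg20 at 1.76 ± 0.13 passed in that fit. Array 1 was singled out after its values were seen, so these values describe the dependence on it. With array 1 as the only array of its group, an alternative chosen after seeing the data, 6 members and 650 of 23913 features passed; the spread then comes from the other groups, and the lone array is assumed to vary as they do.

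**Figure D2:**
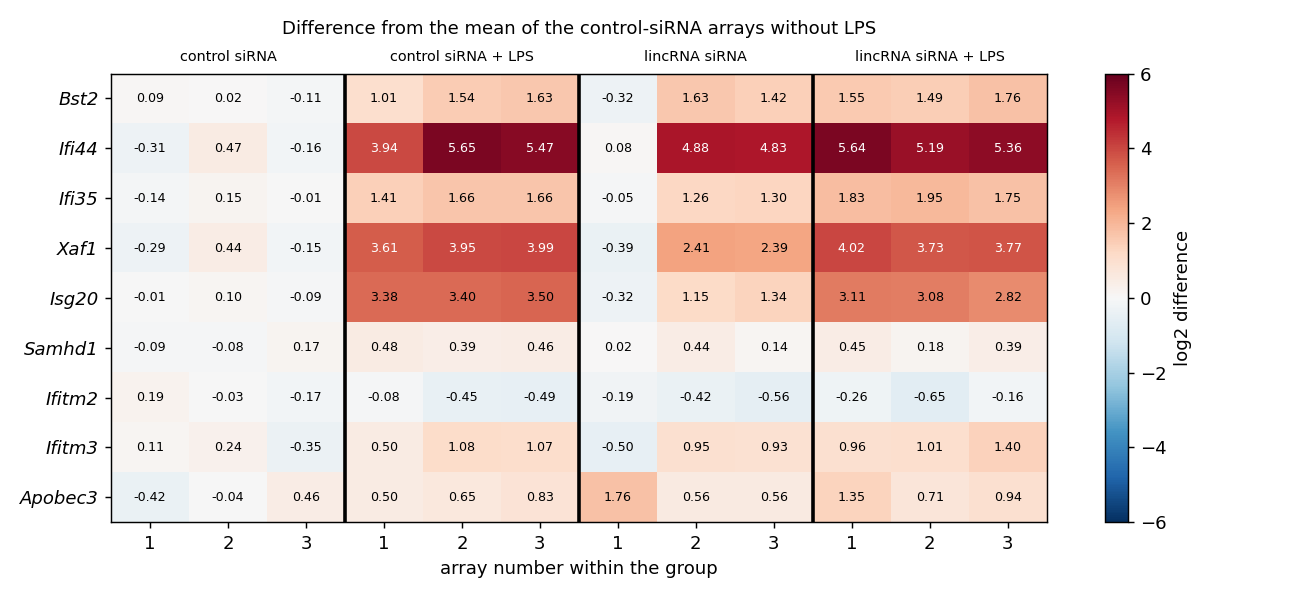
Log2 difference of each of the 9 genes (rows) on each of the 12 arrays (columns, array number within the group) from the mean of the 3 control-siRNA arrays without LPS; red is higher and blue lower, and the number is written in each cell. For Bst2, Ifi44, Ifi35, Xaf1, Isg20 and Ifitm3 array 1 of the lincRNA siRNA lay between -0.50 and 0.08, and arrays 2 and 3 lay between 0.93 and 4.88.

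The 3 arrays of the lincRNA siRNA without LPS did not show a common level of these genes. Both arrays 2 and 3 were at least 1 log2 unit above array 1 for 6 of the 9 genes (Bst2, Ifi44, Ifi35, Xaf1, Isg20 and Ifitm3), where 2.4% of 23892 features were. Both were at least 1 unit above all 3 control-siRNA arrays for 5 of the 9, the same genes without Ifitm3, where 0.632% of features were. Apobec3 was at least 1 unit below array 1 on both, as 0.753% of features were. The 9 genes were chosen with earlier results of these arrays known, so nothing is read from these counts. All of these arrays, and control-siRNA array 3, were on slide 2. Against that control array, Ifi44 differed by 0.24, 5.04 and 5.00 on arrays 1, 2 and 3, and Xaf1 by -0.24, 2.56 and 2.54. For Bst2 the same differences were -0.21, 1.74 and 1.53. These 6 genes showed arrays 2 and 3 above array 1 under each of 4 scalings, with Ifi44 on array 2 between 3.97 and 4.88 above the control mean.

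How far arrays 2 and 3 reached towards the LPS level differed between the genes. Relative to the mean of the control-siRNA arrays with LPS, they stood at 0.24 and 0.03 for Bst2, at 0.07 and 0.04 for Ifitm3 and at -0.14 and -0.19 for Ifi44. Ifi35 stood slightly lower, at -0.31 and -0.27. Xaf1 was at -1.44 and -1.46 and Isg20 at -2.28 and -2.08, so these genes were raised above the control arrays and stayed far below their level with LPS.

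Other genes were read on the same arrays. Among 31 other antiviral effectors, arrays 2 and 3 were at least 1 unit above array 1 for 19. The same held for 3 of 11 JAK-STAT and IRF genes (Stat2, Irf7 and Irf9), for 1 of 5 interferon ligands and receptors (Ifnb1), for 2 of 6 feedback inhibitors (Usp18 and Socs1) and for 2 of 8 relatives of the members (Nmi and Ifitm6). Among 13 genes of the inflammatory response to LPS, a list chosen after seeing the data, it held for 4 (Il6, Csf2, Csf3 and Cxcl2). It held for 0 of 11 genes of deoxynucleotide supply, 0 of 8 macrophage markers and 0 of 6 markers of other cell types. The share was 61.3% for the antiviral effectors and 66.7% for the 9 genes, against 2.4% of all features. At that last share a count of 0 in a short list is no contrast. The lists were drawn up with earlier results of these data known, so nothing is read from these counts.

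Single genes of the pathway and of the inflammatory response were split. Irf7, the transcription factor that amplifies the interferon response, read -0.89, 2.36 and 2.39 on the 3 lincRNA-siRNA arrays without LPS and 2.11 to 2.85 on the control-siRNA arrays with LPS. Ifnb1, which encodes interferon beta, read -4.32, -2.88 and -2.62, against -3.77, -2.99 and -4.01 on the control-siRNA arrays and 0.13 to 0.94 with LPS. Its level on arrays 2 and 3 was thus near the highest control array and far below the LPS arrays. Tnf, an early inflammatory cytokine gene, read 6.16, 6.36 and 6.27, close to the control-siRNA arrays at 6.28, 6.19 and 6.34, and 7.63 to 7.69 with LPS. Il1b, another inflammatory cytokine gene, read 1.58, 1.57 and 1.58, against 4.30 to 4.86 with LPS. Il6 and the chemokine gene Cxcl2 moved part of the way: Il6 read -3.87, -2.79 and -2.35 against 3.00 to 3.36 with LPS, and Cxcl2 1.16, 2.72 and 2.24 against 4.10 to 4.79. The genes in this paragraph, apart from Irf7 and Ifnb1, were chosen after their values were seen. The summed signal of the other-cell-type markers, not scaled between arrays, was 56900, 60200 and 44600 on arrays 1, 2 and 3, and that of the macrophage markers 168000, 197000 and 145000. Siglech made up most of the former sum: its level was 7.09, 6.93 and 6.95, and the next brightest tested marker read at most 1.86. What made arrays 2 and 3 differ from array 1 was not tested.

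**Figure D3:**
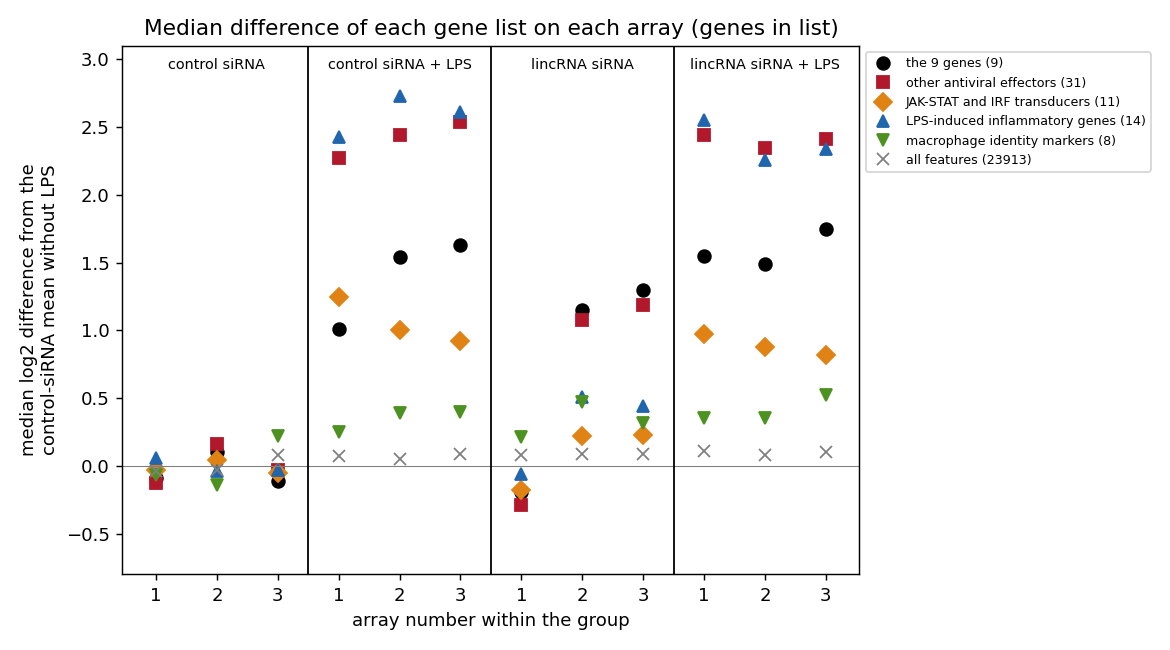
Median log2 difference of each gene list from its control-siRNA mean without LPS (vertical axis) on each of the 12 arrays (horizontal axis); symbols stand for lists, with the number of genes in brackets, and grey crosses for all 23913 features. On arrays 1, 2 and 3 of the lincRNA siRNA without LPS the median was -0.19, 1.15 and 1.30 for the 9 genes, -0.29, 1.08 and 1.19 for the antiviral effectors and -0.06, 0.51 and 0.44 for the inflammatory genes, which reached 2.26 to 2.73 with LPS.

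Differences between the siRNAs for the 9 genes were estimated without and with LPS. The genes were chosen with earlier results of these arrays known. Their intervals and p-values without LPS therefore describe these arrays and are no independent test. Without LPS the estimated differences, lincRNA siRNA minus control siRNA, were above 0 for 8 of 9 genes, and 0 of 9 passed, as 0% of the 23913 features did in limma. At an unadjusted p of 0.05, 18.3% of features and 4 members passed. Ifi44 differed by 3.26 (95% confidence interval 0.82 to 5.71, adjusted p = 0.224) and Xaf1 by 1.47 (0.08 to 2.86, adjusted p = 0.259). Apobec3 differed by 0.96 (0.20 to 1.72, adjusted p = 0.225) and Ifi35 by 0.84 (0.16 to 1.52, adjusted p = 0.229). Bst2 at 0.91 (-0.03 to 1.86) and Isg20 at 0.72 (-0.06 to 1.51) had intervals that included 0, with adjusted p of 0.281 and 0.294. Differences for Ifitm3 (0.46), Samhd1 (0.20) and Ifitm2 (-0.39) had adjusted p of 0.509, 0.424 and 0.274. All 3 lincRNA-siRNA arrays lay above all 3 control-siRNA arrays for Apobec3 alone, as for 12.1% of features, and below them for Ifitm2 alone, as for 9.27%.

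One array decided these values. Without array 1 of the lincRNA siRNA, 5 of 9 members passed, namely Ifi44 (4.86, adjusted p = 0.00752), Xaf1 (2.40, 0.00683), Bst2 (1.53, 0.0138), Ifi35 (1.28, 0.00787) and Isg20 (1.24, 0.00787), among 130 features in all. Array 1 is singled out here because these same genes were low on it, so these p-values describe the dependence on that array and are no independent support for a difference. In the same fit Ifitm3 differed by 0.94 (0.40 to 1.48) and Apobec3 by 0.56 (-0.04 to 1.16), neither past the threshold (adjusted p = 0.122 and 0.283). The second Apobec3 probe differed by 0.20 ± 0.20 (SE) over all arrays. In that fit 13 of 31 antiviral effectors passed upwards, with Trim30a (4.36), Ifi44l (3.67) and Oasl2 (3.60) the furthest, names chosen after their values were seen. Irf7 (2.92) and Irf9 (0.89) passed upwards among 11 JAK-STAT and IRF genes, Usp18 (3.13) among 6 feedback inhibitors, Nmi (1.27) and Ifitm6 (1.31) among 8 relatives, and Cxcl2 (1.71) and Ccl4 (1.01) among 14 inflammatory genes. Socs3 passed downwards (-0.83). With array 1 as the only array of the group, the differences of Bst2, Ifi35, Xaf1, Isg20 and Ifitm3 were below 0, at -0.32, -0.05, -0.39, -0.32 and -0.50, and 0 members passed. The sign for these 5 genes thus differed between array 1 and the group mean.

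With LPS the estimated differences between the siRNAs had wide intervals. They ranged from -0.42 for Isg20 (95% confidence interval -1.20 to 0.36) to 0.38 for Ifi44 (-2.07 to 2.82). Those for Bst2, Ifi35, Ifitm3 and Apobec3 were 0.21, 0.27, 0.24 and 0.34, and those for Xaf1, Ifitm2 and Samhd1 were -0.01, -0.02 and -0.10. None of 9 passed, as 0% of features did, with adjusted p between 0.976 and 0.999 in limma. At an unadjusted p of 0.05, 4.7% of features and 0 members passed. The 3 lincRNA-siRNA arrays lay above all control-siRNA arrays for Ifi35, as for 7.36% of features, and below them for Isg20, as for 4.04%. The interval for Ifi44 includes differences of more than 2 units in either direction, while that for Isg20 ends at 0.36. All groups share 1 estimate of spread, so array 1 of the lincRNA siRNA without LPS bears on these widths. Without that array the intervals were -0.57 to 1.33 for Ifi44 and -0.68 to -0.17 for Isg20, which then excluded 0. The adjusted p of Isg20 in that limma fit was 0.827. That array was singled out after its values were seen, so the narrower intervals are no independent support for a difference.

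The interaction, the LPS change under the lincRNA siRNA minus that under the control siRNA, was below 0 at the tested probes of 8 of 9 genes, with Ifitm2 at 0.37. Of all features 45.1% lay above 0. Second probes of Apobec3 (0.24 ± 0.29) and Samhd1 (0.10 ± 0.16) lay above 0, while those of Xaf1 (-1.49) and Isg20 (-1.25) lay below. Ifi44 had -2.89 (95% confidence interval -6.34 to 0.57), Xaf1 -1.48 (-3.45 to 0.48) and Isg20 -1.14 (-2.25 to -0.04). Without array 1 of the lincRNA siRNA without LPS they were -4.48 (-5.91 to -3.06), -2.41 (-3.08 to -1.74) and -1.67 (-2.05 to -1.28). Bst2 moved from -0.71 to -1.32, Ifi35 from -0.57 to -1.02, Ifitm3 from -0.22 to -0.70 and Apobec3 from -0.62 to -0.22. None of the 9 passed, as 0% of features did in limma, with adjusted p from 0.895 to 0.961. At an unadjusted p of 0.05, 3.71% of features and 1 member, Isg20, passed. In the limma fit without array 1, Isg20 passed (adjusted p = 0.0388), 1 of 3 features that did. Xaf1 had an adjusted p of 0.0635 there and Ifi44 one of 0.112. Array 1 was singled out because these same genes were low on it. The values without it describe the dependence on that array and are no independent support for an interaction.

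**Figure D4:**
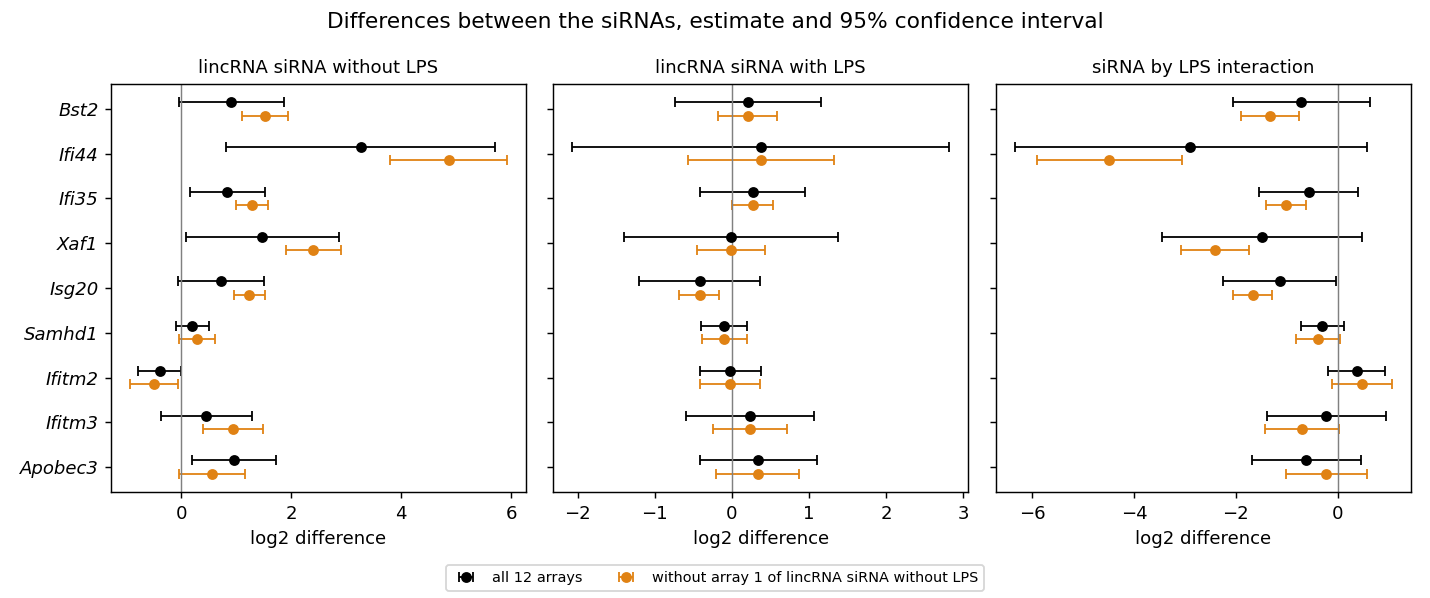
Estimated log2 difference for each of the 9 genes (rows) with its 95% confidence interval (bars), for the siRNAs without LPS, with LPS, and for the interaction (panels). Black points use all 12 arrays and orange points leave out array 1 of the lincRNA siRNA without LPS; for Ifi44 without LPS the estimate moved from 3.26 to 4.86.

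The genes around the members in the interferon pathway were taken from lists chosen by function. Among interferon ligands and receptors 1 of 5 rose with LPS in control-siRNA cells, Ifnb1 by 4.24 ± 0.44 (adjusted p = 0.000457 in limma). Among 11 JAK-STAT and IRF genes 7 rose and none fell, among them Irf1 (3.32) and Irf7 (3.07), which encode transcription factors of the interferon response. Of 6 feedback inhibitors 3 rose: Usp18 (4.91), which removes ISG15 from proteins and blocks the interferon receptor, Socs1 (3.49) and Socs3 (1.58), which restrain JAK kinases. With the slide as a block the counts of these lists were 1 of 5, 2 of 11 and 2 of 6.

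Of 31 other antiviral effectors 23 rose and none fell, with a list median of 2.37, against 1.39 for the 9 genes and 0.06 for all features. Mx1, a GTPase that traps viral nucleocapsids, was not well above background in control-siRNA cells without LPS and rose at least 49.5-fold. Mx2, its relative, rose by 5.81 ± 0.57, and Cmpk2, a mitochondrial nucleotide kinase, by 5.64 ± 0.54. In lincRNA-siRNA cells 15 of the 31 passed upwards with LPS, and 5 of 11 JAK-STAT and IRF genes, where 1.5% of all features did. With the slide as a block the count of effectors was 10 of 31 in control-siRNA cells. In lincRNA-siRNA cells it was 7 of 31, and that of JAK-STAT and IRF genes was 1 of 11. Mx1 (adjusted p = 0.0745), Usp18 (0.180) and Irf7 (0.472) did not pass in control-siRNA cells in that fit. Between the siRNAs none of the genes in the lists passed, without or with LPS.

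Relatives of the members were tested in the same way. Of 8 measured relatives 2 rose with LPS in control-siRNA cells, where 3.21% of features rose, and none fell. Nmi, the partner of Ifi35, rose by 1.48 ± 0.32, and Ifitm1, another IFITM gene, by 0.53 ± 0.12. With the slide as a block neither passed (adjusted p = 0.368 and 0.531). Among 11 genes of deoxynucleotide supply, the pathway on whose products SAMHD1 acts, none rose and Tk2, a mitochondrial thymidine kinase gene, fell by 0.44 (adjusted p = 0.514 with the slide as a block). None of 8 macrophage markers and none of 6 markers of other cell types passed in either direction. The summed signal of the latter, not scaled between arrays, was 18100 to 56800 on the control-siRNA arrays and 40300 to 63900 with LPS, with both slide 1 arrays lowest. Siglech made up most of that sum, at levels of 5.42, 5.62 and 6.98 on the control-siRNA arrays and 6.88 to 6.98 with LPS. The part of these markers in the LPS values was not tested.

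Among the 9 genes the size of the changes over arrays was uneven. Likeness was measured as the root mean square difference, in log2 units, between a gene's profile and the mean profile of the 9, each centred on its own mean. Over all 12 arrays Ifi35 was closest to that mean at 0.14 and Bst2 followed at 0.26, while Ifi44 at 1.60 and Ifitm2 at 1.04 were farthest. Over the 6 arrays without LPS, Ifi35 (0.06), Isg20 (0.15) and Bst2 (0.18) were closest and Ifi44 (1.63) again farthest. The most alike genes outside the set over 12 arrays were Parp9 (0.14), Oas3 (0.18), Tdrd7 and Oas1a (0.20 each) and Nos2 (0.21). Over the 6 arrays without LPS they were Ifi204 (0.06), Nmi (0.08), Zfp975 (0.09), Metrnl (0.10) and Sla2 (0.11). The arrays share the same 3 slides, and these values describe likeness of profile only. Profiles were centred and not scaled, so the measure depends on the size of a gene's changes. Each member also counts in the mean profile, so its value is not comparable with those of genes outside the set.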

How the data were processed

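Members and gene lists were chosen with earlier results of these data known. Spot intensity values, not normalized between arrays, were deposited after Agilent Feature Extraction 10.7.1.1 had subtracted background and detrended each array, with positions on mm9, per the file headers. Other deposited columns hold that tool's spot flags, per the file headers. The authors deposited a value table of the same arrays in log2, a scale read from slopes of 0.981 to 1.03 on the log2 signal. Its columns matched their arrays by rank (lowest correlation 0.999989) and share a median of 4.76; how the authors normalized it is not given in the sources used. It served as an alternative. Gene names are those of the array design; accessions of 26582 matched RefSeq names.

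Outlier spots (104 to 258 per array) and control spots were left out, and no spot was saturated. Spots of a probe were averaged; values are log2 intensity minus the array's 75th percentile. Probes needed a signal well above background on every array of 1 or more groups (33157 of 55681 kept, 59.5%), and a gene's brightest kept probe was tested. The 4 group means were estimated jointly from the 12 arrays by limma 3.58.1 under R 4.3.3 (8 residual degrees of freedom, Benjamini-Hochberg over 23913 features, threshold 0.05); the code was tested on simulated data. Apart from genes said to be chosen after their values were seen, the text names from each list at most the 3 genes with the largest LPS change in control-siRNA cells among those that passed, any gene a count of 5 or fewer covers, and the 5 genes most like the members; 1 listed gene is not reported here by name. An "at least" fold sets the brighter group against a floor, on each dim array the larger of the probe's own value and the lowest value of any probe well above background there. Alternatives were normexp, quantile normalization, the authors' table, other filters, the mean of a gene's probes, slide and replicate blocks, slide 2 alone and leaving out arrays. The number of arrays limits precision. Figures were drawn with matplotlib 3.10.9.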

Additional observations from a re-analysis of the deposited data

How the results depend on the processing

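The number of members past the threshold was 4, 1, 0, 0 and 0 for LPS in control-siRNA cells, LPS in lincRNA-siRNA cells, the siRNA without LPS, the siRNA with LPS and the interaction. Quantile normalization, the authors' table, both other filters and the mean of a gene's probes left it within 1.5 times, and normexp gave 2 for LPS in lincRNA-siRNA cells. With the slide as a block the LPS counts were 1 and 0, and on slide 2 alone 0 and 0, with 49 and 46 features of all past the threshold against 1216 and 437. The slide block left 227 and 157 features, and no filter on dim probes left 720 for LPS in control-siRNA cells. Leaving out 1 array gave 2 to 6 members for LPS in control-siRNA cells, 1 to 2 for LPS in lincRNA-siRNA cells, 0 to 5 for the siRNA without LPS, 0 to 0 with LPS and 0 to 1 for the interaction. The members lost were Ifi35 and Ifi44. Bst2 and Ifitm3 were added without array 1 of the lincRNA siRNA, since all groups share 1 estimate of spread. Samhd1 passed for LPS in control-siRNA cells in 1 of the 22 settings compared. Over all features these ranges were 513 to 3936, 244 to 471, 0 to 2562, 0 to 0 and 0 to 348; 3936, 2562 and 348 came without control-siRNA array 3, where slide 1 alone held the control group and 5, 0 and 0 members passed. For the siRNA without LPS the count of features was also 130 without lincRNA-siRNA array 1, 8 without array 3, 1 without control-siRNA array 1, 5 with normexp, 2 with the mean of a gene's probes and 1 with the slide block; with LPS it was 2 with the slide block. With lincRNA-siRNA array 1 as the only array of its group, chosen after seeing the data, 6 members and 650 features passed for LPS in lincRNA-siRNA cells, and 0 members and 31 features for the siRNA without LPS.

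Some directions turned. With normexp Apobec3 was -0.05 for LPS in lincRNA-siRNA cells and Xaf1 0.02 for the siRNA with LPS. With the slide block, and on slide 2 alone, the siRNA with LPS gave Ifitm2 0.08, Samhd1 0.01 and Xaf1 0.17, and the interaction gave Apobec3 0.19, against -0.62 over all slides. With array 1 alone LPS in lincRNA-siRNA cells gave Apobec3 -0.76 and Ifitm2 -0.17. The siRNA without LPS then gave Bst2 -0.32, Ifi35 -0.05, Ifitm3 -0.50, Isg20 -0.32 and Xaf1 -0.39. The interaction gave Bst2 0.52, Ifi35 0.32, Ifi44 0.30, Ifitm3 0.74 and Xaf1 0.38. Leaving out 1 array, the siRNA with LPS ranged from -0.17 to 0.69 for Ifi44, -0.11 to 0.13 for Ifitm2 and -0.13 to 0.06 for Xaf1. LPS in lincRNA-siRNA cells ranged from -0.16 to 0.44 for Apobec3 and -0.06 to 0.18 for Ifitm2, and the interaction from -0.70 to 0.03 for Ifitm3. The cause of these turns was not tested.

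Replicate numbers are shared by the groups, but arrays of the same number did not deviate together: their correlations ran from -0.30 to 0.47 (median 0.09), against -0.47 to 0.47 (0.01) for different numbers. With the replicate block 4, 1, 0, 0 and 0 members passed, and 1524 and 370 features for the LPS comparisons. Signal over background was not a limit for the tested probes of the members.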
